A study of Mus musculus with 10 samples.

Results

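The mouse gene Trpm7 and 9 genes that code for Mg2+ transporters, Slc41a1, Slc41a2, Slc41a3, Cnnm2, Cnnm3, Cnnm4, Magt1, Mmgt1 and Mrs2, were followed in muscle stem cells (MuSCs) by RNA-seq. They were taken by symbol, without regard to their counts, and are 10 of the 24608 genes listed in the count table. Of these 10 genes, 7 had enough counts to be tested and 3 (Slc41a2, Slc41a3 and Cnnm2) did not. The libraries came from adult mice on a C57BL6 background, with males and females both in use. Control mice were Trpm7+/+; Pax7CreERT2/+; Rosa26YFP, and Trpm7 cKO mice were Trpm7flox/flox; Pax7CreERT2/+; Rosa26YFP. Both genotypes therefore carried the Cre allele and the YFP reporter, and both received 5 daily injections of tamoxifen (TMX), so that Cre, TMX and the reporter do not separate them. Cre is driven by Pax7, which limits deletion and YFP to cells that express Pax7 and their descendants. The muscle was injured with cardiotoxin (CTX), a toxin that destroys myofibers and leaves MuSCs to regenerate them, and 3000 YFP-positive cells were sorted for each library 3 days later. There were 5 libraries per genotype, and each value is a count of molecules at the 3′ end of transcripts.

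Mg2+ is a cofactor of ATP, ribosomes and many enzymes, and cells hold its cytosolic level by balancing entry, exit and storage. TRPM7 is a cation channel of the plasma membrane with a kinase domain at its C terminus and is a main route of Mg2+ entry. SLC41 proteins are Na+-coupled Mg2+ carriers and CNNM proteins are membrane proteins linked to Mg2+ export, while MRS2 is the Mg2+ channel of the mitochondrial inner membrane. MAGT1 and MMGT1 were first described as Mg2+ transporters and are also subunits of the oligosaccharyltransferase and of the ER membrane complex, which glycosylate and insert proteins at the endoplasmic reticulum. In muscle, MuSCs leave quiescence after injury, a step in which the study examined Mg2+ entry through TRPM7.

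The sequence removed in Trpm7 cKO mice decides what a 3′ count of Trpm7 can show. The study draws the loxP sites on either side of exon 22 without naming a transcript, and its numbering was assumed here to be that of the annotated transcript Trpm7-202, which has 39 exons. There, exon 22 is 175 bases long, lies on the minus strand at chr2:126821164-126821338 (GRCm38) and codes for residues 997 to 1055 of 1863. Its sequence in the annotation, written 5′ to 3′ in lower case, is shown because, under that assumption, it is the part of the gene that the deletion removes.

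Trpm7 exon 22: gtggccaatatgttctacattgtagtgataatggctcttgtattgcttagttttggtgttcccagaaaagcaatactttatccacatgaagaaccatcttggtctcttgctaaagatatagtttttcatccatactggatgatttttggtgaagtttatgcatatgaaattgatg

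When these 175 bases are left out, this transcript reads through 996 residues of the normal protein and 17 residues in another frame to a stop codon. The transcript continues for 3690 bases beyond exon 22, and the 3′ end that was counted lies there. Counts of Trpm7 therefore cannot tell RNA with exon 22 from RNA without it, and they report how much RNA ending at the Trpm7 3′ end was present. Whether a transcript without exon 22 is as stable as one with it was not tested. A lower or an unchanged count thus does not check the deletion. The study checked the deletion by other means. It measured Trpm7 mRNA in freshly isolated MuSCs, ran a PCR and stained TRPM7 in MuSCs of freshly isolated myofibers. The study reported that the mRNA and the PCR showed the gene deletion and that the staining showed Trpm7 deficiency to be effective. These checks are not described for cells taken 3 days after CTX.

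Depth and cell markers differed between the genotypes and bear on each value below. Totals ranged from 914361 to 1097709 counts in control and from 205986 to 581121 in Trpm7 cKO libraries, and depth therefore cannot be told apart from genotype. Values are given as counts and as CPM, that is, per 1000000 counts in tested genes after scaling by the trimmed mean of M values. Pax7, the transcription factor that marks MuSCs, was present in all libraries, at 166 to 259 CPM in control and 265 to 557 CPM in Trpm7 cKO, and the summed CPM of 24 MuSC identity genes was 4466 to 5211 and 4306 to 7726. Of these 24, 20 were tested, of which 10 were higher, 4 were lower and 6 did not pass (median log2 fold change 0.60). Across all tested genes, 24.6% were higher and 24.1% lower. Scaling on the MuSC identity genes, given for some genes below, thus does not rest on a set that stayed level. Of 46 leukocyte markers in the table, 29 were tested and all 29 were higher in Trpm7 cKO, where 24.6% of all tested genes were higher. The sums over all 46 were 511 to 853 CPM in control and 1818 to 7859 CPM in Trpm7 cKO. Some markers, such as Ccr2 and Adgre1 (at most 5 counts in a control library), passed the filter on low counts only through Trpm7 cKO libraries. The endothelial marker Cdh5 (at most 8) did so too, and the counts of markers called higher are therefore partly set by the filter. Lyz2, with at least 81 counts in each control library, did not depend on it. None of Ptprc, Cd68 and Lyz2, which define leukocytes and macrophages, was at 0 in any library. The 4 tested endothelial markers were also higher (sums of 11.8 to 88.0 and 166 to 833 CPM), and of 6 tested fibroadipogenic markers, 4 were higher and 1 was lower (median log2 fold change 1.91), although their sums overlapped (2395 to 4120 and 2298 to 4917 CPM). The 3 tested myofibre markers were lower (sums of 213 to 432 and 102 to 183 CPM). The part of leukocyte RNA in the results below was not tested. A fit with the marker level as a covariate is given for some genes. The leukocyte sums did not overlap between the genotypes, so that fit cannot separate marker level from genotype.

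**Figure D1:**
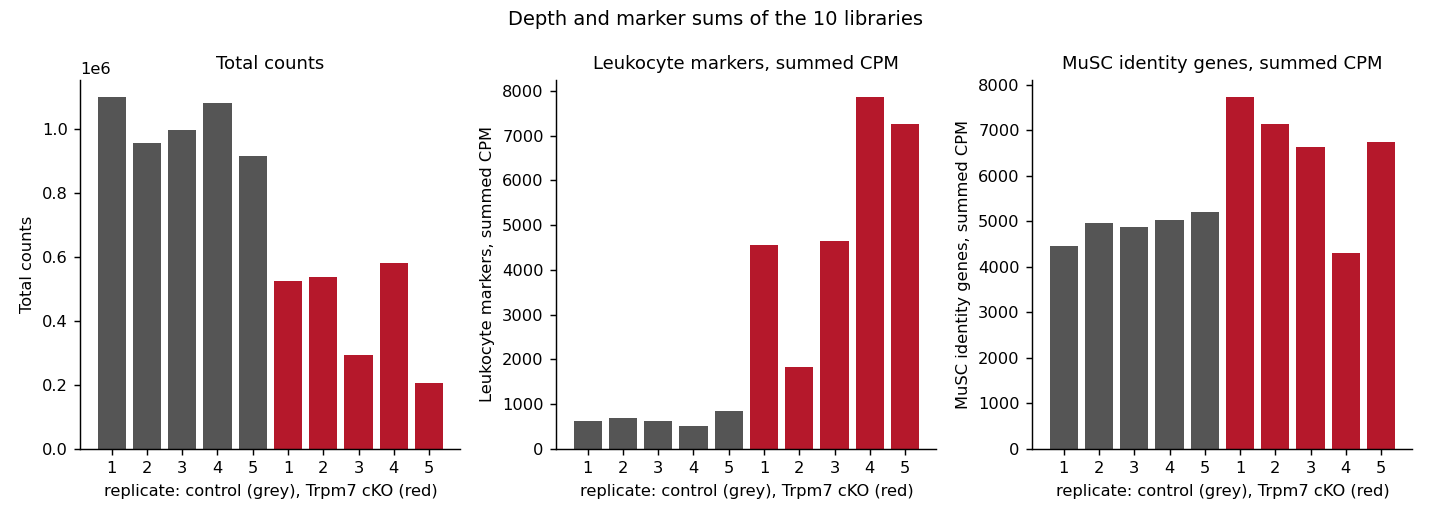
Total counts (left), summed CPM of leukocyte markers (middle) and summed CPM of MuSC identity genes (right), each on the y axis for the 5 control (grey) and 5 Trpm7 cKO (red) libraries, with 1 bar per library. Every Trpm7 cKO library had fewer counts and more leukocyte marker RNA than every control library, and the marker sum was highest in Trpm7 cKO replicates 4 and 5 (7859 and 7257 CPM).

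Across all 7753 tested genes, 48.7% passed an adjusted p-value of 0.05 in the quasi-likelihood test of edgeR, adjusted by the Benjamini-Hochberg method, 24.6% higher and 24.1% lower in Trpm7 cKO. Against that background, 2 of the 7 tested genes passed, Slc41a1 with a higher and Mmgt1 with a lower level. The other 5 (Trpm7, Magt1, Cnnm3, Cnnm4 and Mrs2) did not pass. With the study's 2 thresholds together, a log2 fold change beyond 1.5 and an adjusted p-value below 0.05, Slc41a1 passed, as did 12% of all tested genes. On scaling on the MuSC identity genes, Slc41a1 fell short of that fold threshold (log2 fold change 1.41) and Mmgt1 was past it (-1.81). The median log2 fold change was -0.09 over the 7 genes and -0.006 over all tested genes.

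**Figure D2:**
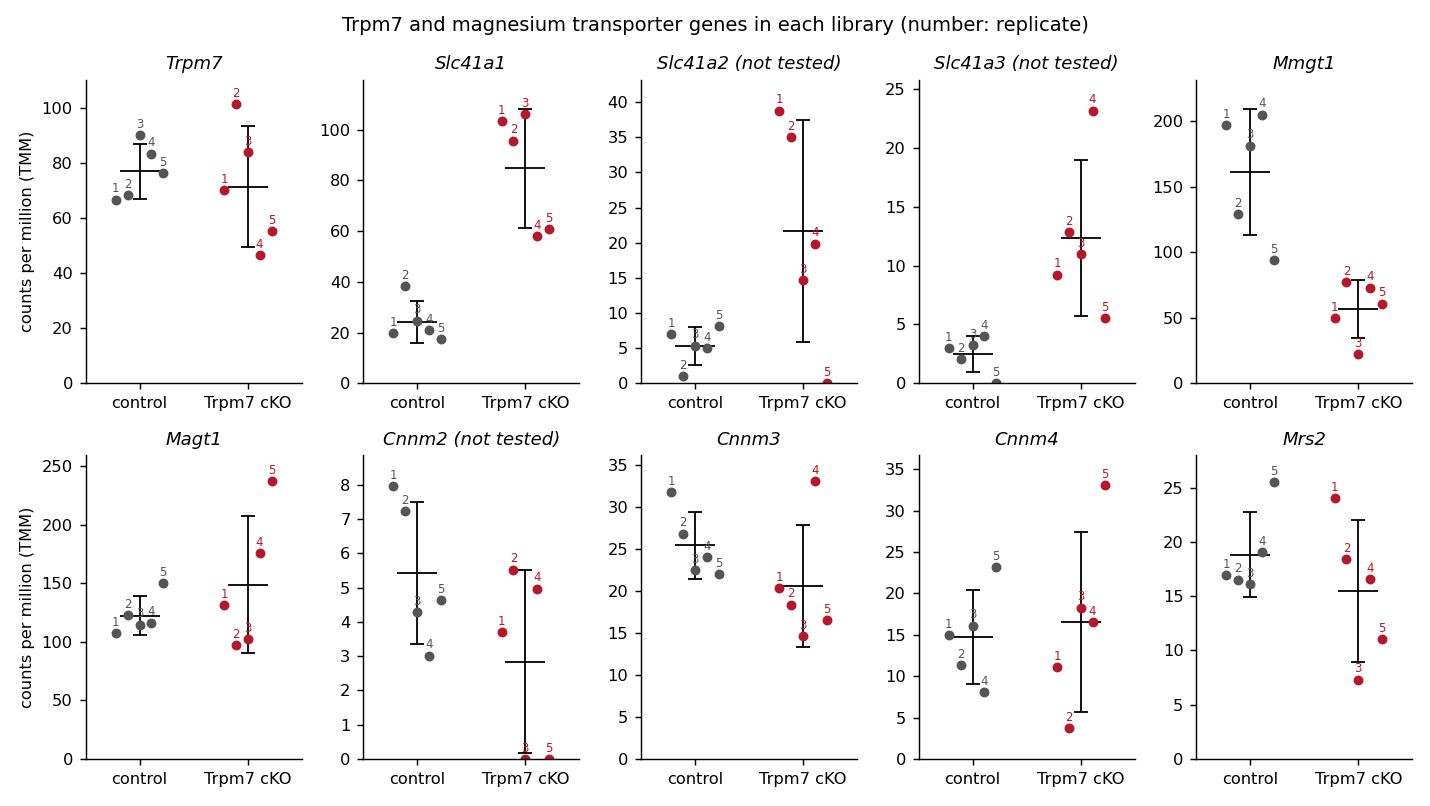
CPM (y axis, linear, from 0) of the 10 genes in each control (grey) and Trpm7 cKO (red) library. Points are libraries with their replicate number, long horizontal marks are means and bars are SD (n = 5). Slc41a1 (higher in Trpm7 cKO) and Mmgt1 (lower) separate the genotypes and Trpm7 does not, while Slc41a3 was too low to test and its separation rests on 1 count in Trpm7 cKO replicate 5 and 3 counts in replicate 3.

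For Trpm7, which the deletion targets, control replicates 1 to 5 held 67, 66, 84, 83 and 66 counts, and Trpm7 cKO replicates 1 to 5 held 38, 55, 23, 28 and 10. In CPM this was 66.6, 68.2, 90.1, 83.3 and 76.4 in control and 70.2, 101.2, 84.0, 46.4 and 55.2 in Trpm7 cKO. The genotypes overlapped, and Trpm7 cKO replicates held both the highest value (replicate 2) and the 2 lowest (replicates 4 and 5). The means were 76.9 ± 9.97 CPM (SD, n = 5) and 71.4 ± 22.01 CPM (SD, n = 5). The log2 fold change was -0.09 (standard error 0.20, 95% confidence interval -0.51 to 0.32, adjusted p = 0.723 by edgeR), a difference smaller than the spread between replicates. In control libraries the CPM of Trpm7 varied by 13.0% (coefficient of variation), close to the 11.7% that counting alone gives at this depth. In Trpm7 cKO libraries it varied by 30.8%, against 18.0% from counting. In a bulk library, fewer cells of a type and less RNA per cell cannot be told apart, and this holds for all genes here.

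Without scaling for library size, as counts per 3000 sorted cells, Trpm7 RNA was lower in Trpm7 cKO (log2 fold change -1.25, adjusted p = 0.00265 by edgeR). The median of all tested genes was -1.15 on that scale. With the leukocyte marker level as a covariate the log2 fold change of Trpm7 was 1.21 (adjusted p = 0.124), and without Trpm7 cKO replicate 4 it was 0.05 (adjusted p = 0.844), neither of which passed. Trpm6, the closest relative of TRPM7 and also a channel with a kinase domain (56.5% identical residues over 1820 aligned), had 5 counts in all control libraries together and 1 in all Trpm7 cKO libraries. None of the 6 other TRPM channels in the table, Trpm6 among them, had enough counts to be tested, and none exceeded 9 counts summed over the libraries of a genotype.

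The genes whose log2 CPM followed that of Trpm7 most closely over the 10 libraries, among 3762 tested genes with a mean of at least 50 CPM, were Atp2b4 (Pearson r = 0.90), Ttc39b (0.87) and Mib1 (0.85). Atp2b4 codes for a Ca2+ pump of the plasma membrane and Mib1 for a ubiquitin ligase that acts on Notch ligands. None of these 3 passed between the genotypes (log2 fold changes 0.01, 0.17 and -0.15). The 10 points share the depth and the marker levels of their libraries, and the values describe these libraries only.

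The Slc41a genes code for a family of Mg2+ carriers with a plasma membrane Na+/Mg2+ exchanger, SLC41A1, as its best known member. Their proteins, translated from the annotated transcripts, have 512 (SLC41A1), 573 (SLC41A2) and 488 (SLC41A3) residues, and SLC41A1 shares 65.5% of aligned residues with SLC41A2 and 51.8% with SLC41A3. The genes lie on different chromosomes. Slc41a1 is at chr1:131827493-131848865 on the plus strand, Slc41a2 at chr10:83230848-83337882 on the minus strand and Slc41a3 at chr6:90604725-90646412 on the plus strand (GRCm38). The RefSeq promoter windows of the family, from 250 bases before to 50 bases after each transcription start, are shown because these are the genes with the highest ratios of Trpm7 cKO to control among the 10. Capitals mark matches, on either strand, to the GC box GGGCGG, the CCAAT box, the E box CACGTG, the AP-1 site TGANTCA, the CRE TGACGTCA and the TATA box TATAAA.

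Slc41a1 promoter, chr1:131827762-131828061 (GRCm38.p6), plus strand: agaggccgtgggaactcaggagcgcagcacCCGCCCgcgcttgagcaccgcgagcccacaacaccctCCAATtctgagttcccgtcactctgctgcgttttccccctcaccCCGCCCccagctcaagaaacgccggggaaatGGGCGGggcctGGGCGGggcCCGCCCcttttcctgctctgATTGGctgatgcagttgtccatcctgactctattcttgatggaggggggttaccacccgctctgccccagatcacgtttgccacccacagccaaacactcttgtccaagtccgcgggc
Slc41a2 promoter, chr10:83337768-83338067 (GRCm38.p6), minus strand: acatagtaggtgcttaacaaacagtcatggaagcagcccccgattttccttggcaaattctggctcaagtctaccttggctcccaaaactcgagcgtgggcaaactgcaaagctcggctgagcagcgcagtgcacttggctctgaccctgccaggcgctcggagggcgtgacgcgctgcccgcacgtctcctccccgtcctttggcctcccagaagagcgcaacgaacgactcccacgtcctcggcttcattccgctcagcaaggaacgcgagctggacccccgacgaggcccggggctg
Slc41a3 promoter, chr6:90618996-90619295 (GRCm38.p6), plus strand: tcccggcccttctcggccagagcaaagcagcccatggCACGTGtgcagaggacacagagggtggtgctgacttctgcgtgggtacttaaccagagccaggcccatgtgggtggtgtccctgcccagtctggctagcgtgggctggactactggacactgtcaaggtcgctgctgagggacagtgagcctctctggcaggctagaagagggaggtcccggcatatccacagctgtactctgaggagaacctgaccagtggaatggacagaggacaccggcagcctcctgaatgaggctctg

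The Slc41a1 window holds 5 matches to GGGCGG and 2 to CCAAT, the Slc41a3 window 1 match to CACGTG, and the Slc41a2 window none of the 6 motifs. The Slc41a3 window lies inside the gene as positioned above, downstream of its annotated start at chr6:90604725, and so belongs to another transcription start. No match in these windows overlaps another. In the RefSeq set of 32851 windows of this length, 35.7% hold GGGCGG, 37.4% CCAAT, 7.15% CACGTG, 7.81% TGANTCA, 1.79% TGACGTCA and 13.6% TATAAA. The AP-1 motif TGANTCA, bound by Fos and Jun proteins, occurs in none of the 8 windows available for the 10 genes. CACGTG occurs in the windows of Trpm7 (2 matches), Magt1 (1 match) and Slc41a3. These letters are descriptions of the windows only.

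Slc41a1 had 20, 37, 23, 21 and 15 counts in control and 56, 52, 29, 35 and 11 in Trpm7 cKO replicates 1 to 5. In CPM this was 19.9, 38.2, 24.7, 21.1 and 17.4 in control and 103.5, 95.7, 106.0, 58.0 and 60.7 in Trpm7 cKO. All Trpm7 cKO libraries lay above all control libraries, as was the case in either direction for 34.5% of all tested genes. The means were 24.2 ± 8.24 CPM (SD, n = 5) and 84.8 ± 23.5 CPM (SD, n = 5). Slc41a1 was 3.50-fold higher in Trpm7 cKO (log2 fold change 1.81, standard error 0.24, 95% confidence interval 1.31 to 2.31, adjusted p = 4.61e-06 by edgeR). Within Trpm7 cKO, replicates 4 and 5 had the lowest values of Slc41a1 and the highest sums of leukocyte markers. With that marker level as a covariate, the log2 fold change of Slc41a1 was 2.46 (adjusted p = 0.0151 by edgeR), in a fit that cannot separate marker level from genotype. Without scaling for library size, Slc41a1 did not pass (log2 fold change 0.65, adjusted p = 0.113), and the lower total of Trpm7 cKO libraries is part of that value.

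Slc41a2, a relative of SLC41A1 with Mg2+ transport activity, was too low to test, with 7, 1, 5, 5 and 7 counts in control and 21, 19, 4, 12 and 0 in Trpm7 cKO. In CPM it reached 1.03 to 8.10 in control and 14.6 to 38.8 in Trpm7 cKO replicates 1 to 4. Replicate 5 of Trpm7 cKO, the shallowest library, had 0 counts, which allows up to 16.6 CPM at a limit of 3 counts. The genotypes therefore overlapped through that library. When no filter on low counts was applied, which tests 21914 genes and calls 25.2% of them, the log2 fold change of Slc41a2 was 2.03 (standard error 0.39, adjusted p = 3.71e-06 by edgeR). A fold change fitted on so few counts depends on the filter and the prior count.

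Slc41a3, which has been placed in mitochondria as an exporter of Mg2+, had 3, 2, 3, 4 and 0 counts in control and 5, 7, 3, 14 and 1 in Trpm7 cKO. Although every Trpm7 cKO library had a higher CPM (5.52 to 23.2) than every control library (0 to 4.02), the Trpm7 cKO values rested on 30 counts and the control values on 12. Without the filter, where 25.2% of 21914 genes were called, the log2 fold change was 2.17 (standard error 0.54, adjusted p = 4.42e-04 by edgeR). That fit rests on the same few counts, and Slc41a3 stays too low to test. In its last 500 transcript bases, 3.83% of 31-base stretches also occur in other genes, such as Pex7, so that some of its few counts could be shared.

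Summed over the 3 Slc41a genes, control libraries held 29.8, 41.3, 33.2, 30.1 and 25.5 CPM and Trpm7 cKO libraries 151.5, 143.5, 131.5, 101.1 and 66.2 CPM. Each Trpm7 cKO sum was above each control sum, and the sums rested on 153 and 269 counts per genotype. Slc41a1 made up 66.7% to 92.5% of the family's 3′ molecules, not divided by length, in control and 57.4% to 91.7% in Trpm7 cKO libraries.

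Mmgt1 (chrX:56585512-56598069, minus strand) codes for a small membrane protein of 131 residues, known both as a Mg2+ transporter and as EMC5, a subunit of the ER membrane complex. It had 198, 125, 169, 204 and 81 counts in control and 27, 42, 6, 44 and 11 in Trpm7 cKO replicates 1 to 5. In CPM this was 196.9, 129.1, 181.3, 204.8 and 93.8 in control and 49.9, 77.3, 21.9, 72.9 and 60.7 in Trpm7 cKO. The genotypes did not overlap, although control replicate 5 (93.8 CPM) and Trpm7 cKO replicate 2 (77.3 CPM) lay close together. The means were 161 ± 47.8 CPM (SD, n = 5) and 56.5 ± 22.1 CPM (SD, n = 5). Mmgt1 was 2.73-fold lower in Trpm7 cKO (log2 fold change -1.45, standard error 0.26, 95% confidence interval -1.99 to -0.91, adjusted p = 1.69e-04 by edgeR), just short of the study's fold threshold. With the leukocyte marker level as a covariate, Mmgt1 did not pass (log2 fold change -0.49, adjusted p = 0.756), in a fit that called 491 genes in all.

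Other subunits of the ER membrane complex, which inserts membrane proteins into the endoplasmic reticulum, were read beside Mmgt1. Of 9 subunits, 7 were tested, of which 1 was higher, 3 were lower and 3 did not pass, where 48.7% of all tested genes passed. Their median log2 fold change was -0.30. Emc6, a core membrane subunit, was lower, at 269 ± 31.7 CPM in control (SD, n = 5) and 111 ± 23.3 CPM in Trpm7 cKO (SD, n = 5) (log2 fold change -1.24, adjusted p = 2.69e-06 by edgeR). Emc1 (log2 fold change -0.61) and Emc7 (-0.45) were also lower, while Emc3 was higher (0.55).

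Magt1 (chrX:105968084-106011906, minus strand) codes for a protein of 368 residues, a Mg2+ transporter and a subunit of the oligosaccharyltransferase that contains STT3B. It had 108, 119, 107, 116 and 130 counts in control and 71, 53, 28, 106 and 43 in Trpm7 cKO. In CPM this was 107.4, 122.9, 114.8, 116.4 and 150.5 in control and 131.2, 97.5, 102.3, 175.6 and 237.3 in Trpm7 cKO. The genotypes overlapped, with Trpm7 cKO replicates 4 and 5 above all control libraries and replicates 2 and 3 below all of them. The log2 fold change was 0.24 (standard error 0.20, 95% confidence interval -0.18 to 0.65, adjusted p = 0.345 by edgeR). Its sign turned on scaling on the MuSC identity genes (-0.06), and as counts per 3000 sorted cells it was -0.94 (adjusted p = 0.0205), where the median of all genes was -1.15. Replicates 4 and 5, the Trpm7 cKO libraries with the highest values of Magt1, also had the highest leukocyte marker sums.

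Tusc3, whose protein shares 65.6% of aligned residues with MAGT1 and takes its place in the same enzyme, had a mean of 44.4 ± 6.10 CPM in control (SD, n = 5) and 29.4 ± 14.8 CPM in Trpm7 cKO (SD, n = 5). Its log2 fold change was -0.57 (adjusted p = 0.0644 by edgeR), which did not pass. Of the 11 oligosaccharyltransferase genes, all of them tested, 3 were higher (Ddost, Rpn2 and Ost4), 4 were lower (Stt3b, Ostc, Tmem258 and Krtcap2) and 4 did not pass, where 24.6% of all tested genes were higher and 24.1% lower. Their median log2 fold change was -0.25. Ost4 had 2 to 11 counts in control and 4 to 9 counts in Trpm7 cKO libraries. It passed the filter on low counts only through the Trpm7 cKO libraries, where it was high, so its call gives no support for a difference. Krtcap2, a subunit of the enzyme that works together with the translocon, had the lowest log2 fold change of the 11 (-1.69, adjusted p = 3.93e-05 by edgeR), from 629 ± 196 CPM (SD, n = 5) in control to 188 ± 67.3 CPM in Trpm7 cKO (SD, n = 5). Stt3b, the catalytic subunit that works with MAGT1, was lower by less (log2 fold change -0.51, adjusted p = 0.0290 by edgeR).

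**Figure D3:**
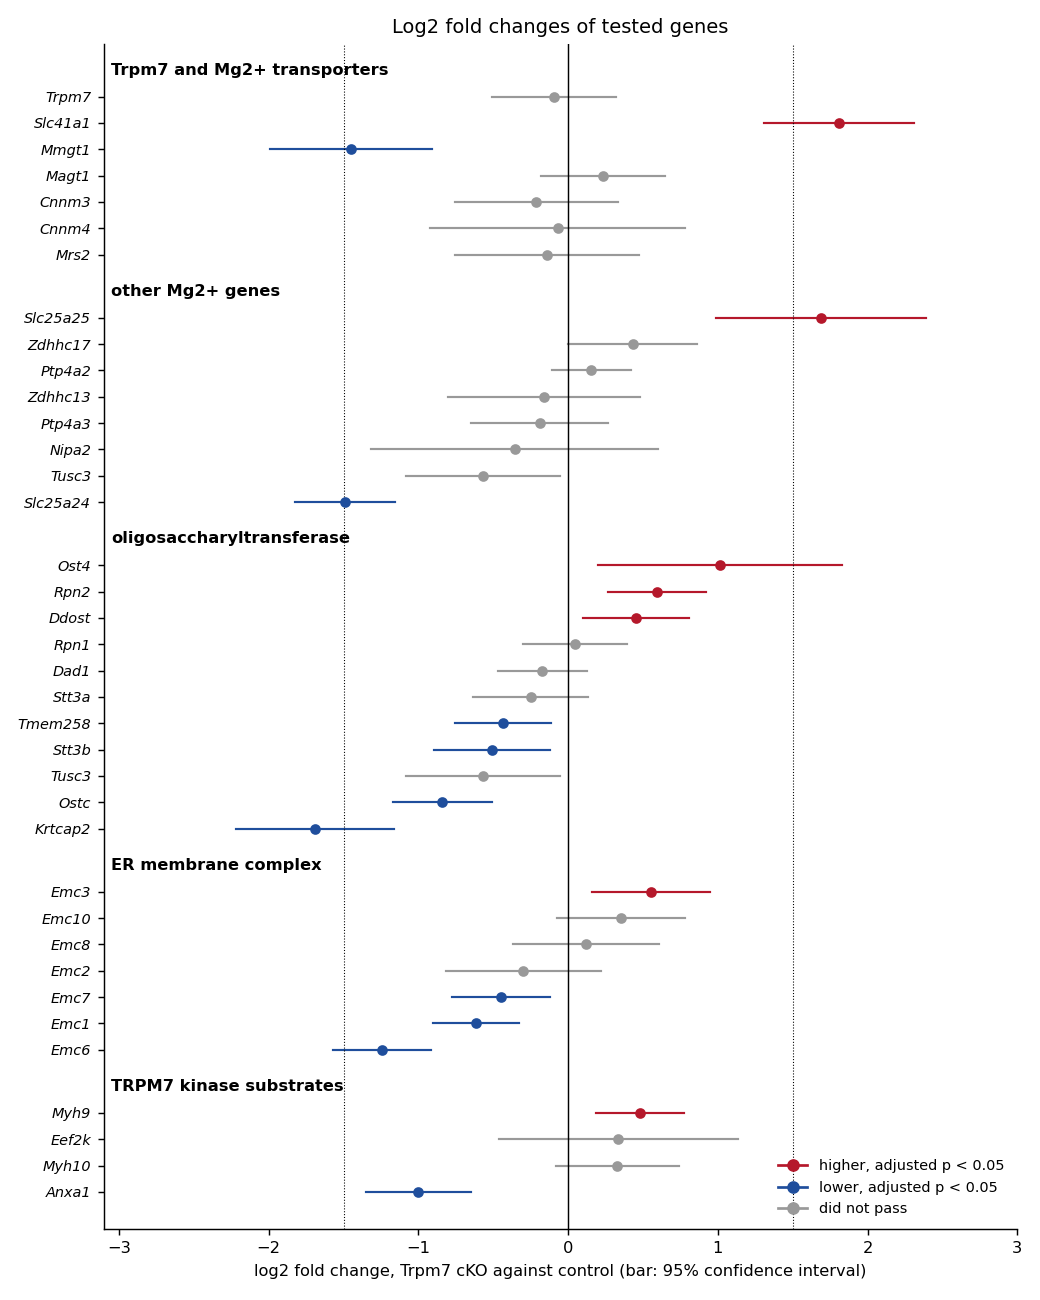
Log2 fold change of Trpm7 cKO against control (x axis) for the tested genes of each list (y axis). Points are edgeR estimates from 5 libraries per genotype, bars are 95% confidence intervals, dotted lines mark 1.5 in each direction, and colours mark genes that passed an adjusted p-value of 0.05. Slc41a1 (1.81) and Mmgt1 (-1.45) are the coloured points of the top block, and in the blocks of both complexes points lie on either side of 0.

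The Cnnm genes code for membrane proteins that lower cellular Mg2+ and bind the phosphatases of the Ptp4a family. Cnnm3 had 32, 26, 21, 24 and 19 counts in control and 11, 10, 4, 20 and 3 in Trpm7 cKO, or 21.995 to 31.8 CPM and 14.6 to 33.1 CPM. The ranges overlapped through Trpm7 cKO replicate 4, the other 4 Trpm7 cKO libraries lying below all control libraries. Its log2 fold change was -0.21 (standard error 0.26, 95% confidence interval -0.75 to 0.33, adjusted p = 0.533 by edgeR). Part of the Cnnm3 3′ end, 9.15% of 31-base stretches in the last 500 bases, also occurs in other genes, such as Trim7. The gene Gm38033, on the opposite strand, overlaps the last exon of Cnnm3 and is not part of that share.

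Cnnm4, an exporter of Mg2+ in epithelia, had 15, 11, 15, 8 and 20 counts in control and 6, 2, 5, 10 and 6 in Trpm7 cKO. Its CPM ran from 8.03 to 23.2 and from 3.68 to 33.1, so that the Trpm7 cKO range enclosed the control range. The log2 fold change was -0.07 with a 95% confidence interval of -0.92 to 0.78, the widest of the 7 tested genes. Cnnm2, which takes part in Mg2+ reabsorption in the kidney, had 8, 7, 4, 3 and 4 counts in control and 2, 3, 0, 3 and 0 in Trpm7 cKO and was too low to test. A count of 0 allows up to 10.96 CPM in Trpm7 cKO replicate 3 and 16.6 CPM in replicate 5, above all control values (3.01 to 7.96 CPM), so that a difference was not detectable at this depth. Without the filter the log2 fold change of Cnnm2 was -0.73 (adjusted p = 0.409 by edgeR).

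Mrs2 codes for a mitochondrial protein of 434 residues that carries, at residue 351, the GMN motif of this family of Mg2+ channels. It had 17, 16, 15, 19 and 22 counts in control and 13, 10, 2, 10 and 2 in Trpm7 cKO. In CPM this was 16.1 to 25.5 in control and 24.02, 18.4, 7.31, 16.6 and 11.04 in Trpm7 cKO. The ranges overlapped, and the lowest values, in Trpm7 cKO replicates 3 and 5, rested on 2 counts each in the 2 shallowest libraries. Its log2 fold change was -0.14 (standard error 0.29, 95% confidence interval -0.75 to 0.48, adjusted p = 0.760 by edgeR).

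Among other genes of Mg2+ handling, 20 of a list of 23 were in the table and 8 were tested, of which 1 was higher, 1 was lower and 6 did not pass, where 48.7% of all tested genes passed. Both that passed code for mitochondrial carriers that exchange ATP-Mg for phosphate. Slc25a24 was at 278, 263, 313, 291 and 279 CPM in control and 90.5, 84.7, 121, 131 and 71.7 CPM in Trpm7 cKO, with no overlap (log2 fold change -1.49, adjusted p = 4.71e-07 by edgeR). Slc25a25 was at 17.9, 14.5, 13.9, 12.1 and 17.4 CPM in control and 49.9, 66.2, 58.5, 13.3 and 77.3 CPM in Trpm7 cKO (log2 fold change 1.69, adjusted p = 3.64e-04 by edgeR). Only replicate 4 of Trpm7 cKO lay within the control range. The related carriers thus moved in opposite directions. The Ptp4a genes, whose phosphatases bind CNNM proteins, did not pass where tested, with log2 fold changes of 0.16 for Ptp4a2 and -0.19 for Ptp4a3.

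Substrates of the TRPM7 kinase were read as well. Of 6 such genes, 4 were tested and 2 passed, where 48.7% of all tested genes did. Anxa1, which codes for the membrane-binding protein annexin A1, was lower (659 ± 76.5 and 323 ± 92.0 CPM, SD, n = 5 each, log2 fold change -0.999, adjusted p = 6.56e-05 by edgeR). Myh9, the heavy chain of non-muscle myosin IIA, was higher (log2 fold change 0.48, adjusted p = 0.00776 by edgeR). Eef2k and Myh10 did not pass.

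**Figure D4:**
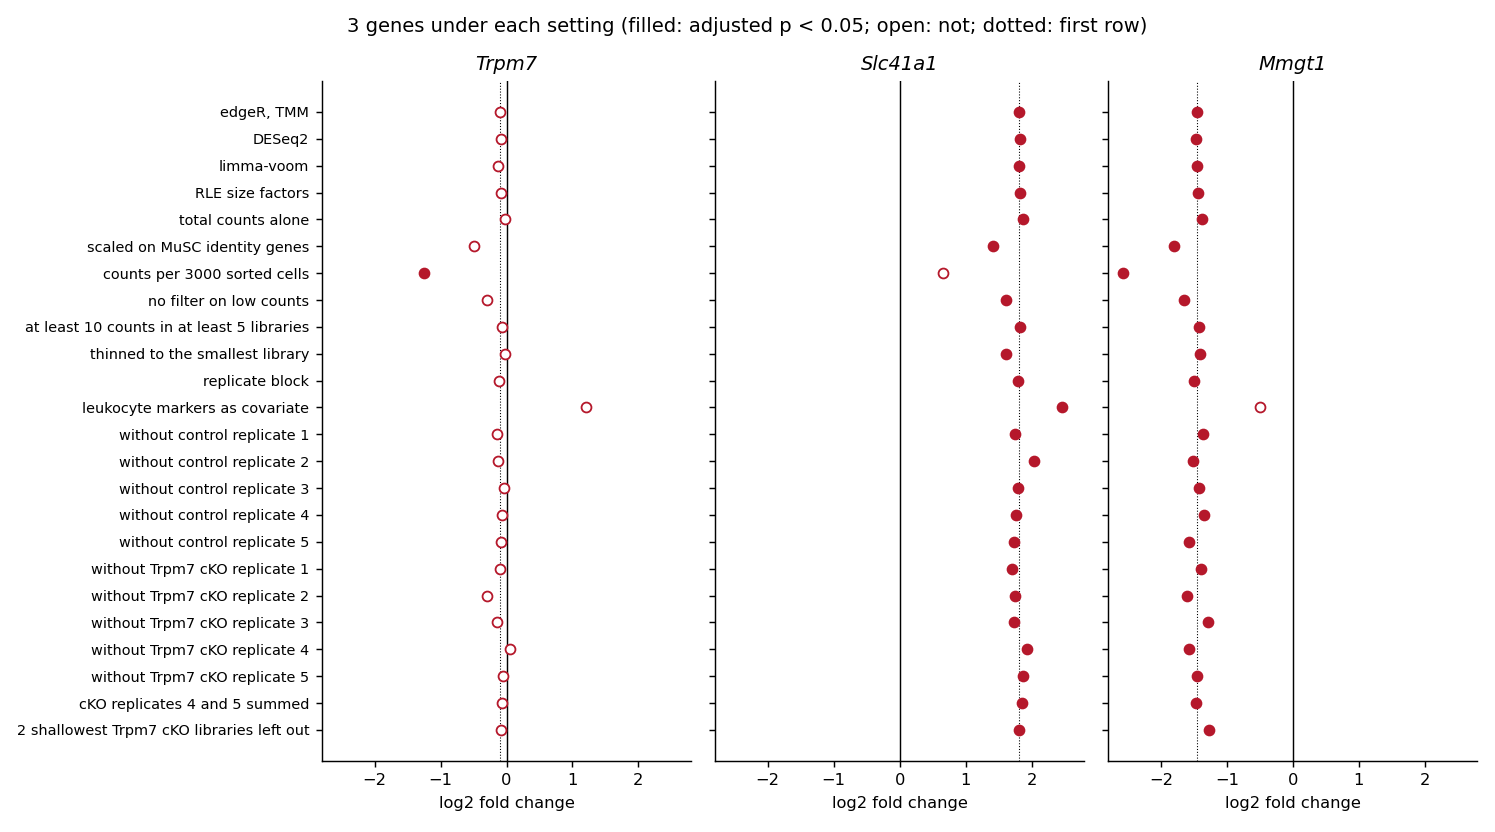
Log2 fold change (x axis) of Trpm7, Slc41a1 and Mmgt1 under each processing setting (y axis), with 1 point per setting, filled where the adjusted p-value was below 0.05 and open where it was not. Slc41a1 lies above 0 and Mmgt1 below 0 in each row, with an open point for Slc41a1 only as counts per 3000 sorted cells (0.65) and for Mmgt1 only with the leukocyte covariate (-0.49), while Trpm7 is filled only as counts per 3000 sorted cells (-1.25).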

How the data were processed

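RNA from 3000 sorted YFP-positive MuSCs per library was made into CEL-Seq2 libraries, 5 control and 5 Trpm7 cKO. According to the methods and labels, the authors extracted barcodes and molecular identifiers (UMIs) with UMI-tools 1.1.4, trimmed reads with Trim Galore 0.6.10, aligned them to GRCm38 with HISAT2 2.2.1, assigned them to genes with featureCounts 2.0.6 and removed UMI duplicates. The deposited values are whole-number counts per gene, without normalization. The annotation release and strand setting are not given in the sources used here. A count stands for 1 molecule at the 3′ end and is not divided by length, so sums and shares over the Slc41a genes are of 3′ molecules and say nothing of levels per length. The table was mapped through its column names, with 0 columns unmapped, and 12 symbols listed again were represented by the entry with the larger total.

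Counts were fitted with edgeR 4.0.16 in R 4.3.3: filterByExpr (minimum count 10, minimum total 15), trimmed mean of M values, robust quasi-likelihood F test with genotype as the only term, and Benjamini-Hochberg adjustment over all 7753 tested genes. CPM is per 1000000 of the counts in tested genes, and log2 CPM used a prior count of 2. Groups came from the labels, in which replicates 4 and 5 of Trpm7 cKO share a number of unstated meaning. Whether libraries are separate animals is not stated either, so p-values measure the spread between these libraries, which differed by more than counting noise in every pair of a genotype. The 95% confidence intervals of log2 fold changes come from the fit and include the spread between libraries, whereas the limit of 3 counts covers counting error only.

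The genes and lists were chosen with earlier results of these data known. Named are all 10 genes, the members of each list that passed (at most 6, by adjusted p-value), defining genes of marker lists and the 3 genes most correlated with Trpm7. Genes named beyond this rule (Tusc3, Trpm6 and others that did not pass) were named after their values were seen. Gene positions and exons come from GENCODE M21 (GRCm38), with the principal protein-coding transcript of each gene, and promoter windows from RefSeq (GRCm38.p6). Promoter windows were found for 8 of the 10 genes; Mmgt1 and Mrs2 were not among them. The alternatives included DESeq2 1.42.0, limma-voom (limma 3.58.1), other scalings, filters and thresholds, counts thinned to 205986 per library, leukocyte markers as a covariate, a replicate block and libraries left out.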

Additional observations from a re-analysis of the deposited data

How the results depend on the processing

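Slc41a1 stayed higher and Mmgt1 lower in Trpm7 cKO under each alternative run, and the calls held except that Slc41a1 did not pass as counts per 3000 sorted cells (0.65) and Mmgt1 did not pass with the leukocyte covariate (-0.49). With each library left out in turn, the log2 fold change ranged from 1.70 to 2.04 for Slc41a1, from -1.60 to -1.29 for Mmgt1 and from -0.30 to 0.052 for Trpm7, the 0.052 being without Trpm7 cKO replicate 4. The number of genes called higher (1) was 0 as counts per 3000 sorted cells, 3 with no filter on low counts, 2 with Trpm7 cKO replicates 4 and 5 summed into 1 library, 2 without the 2 shallowest Trpm7 cKO libraries (replicates 3 and 5, an alternative chosen after the data were seen) and 1 to 2 with 1 library left out, the 2 being without Trpm7 cKO replicate 5, when Slc41a2 passed the filter (log2 fold change 2.39). In each setting with 2, the added gene was Slc41a2, which had at most 7 counts in a control library. It passed the filter only through the Trpm7 cKO libraries, where it was high, so these added calls give no support for a difference. The number called lower (1) was 6 as counts per 3000 sorted cells and 0 with the leukocyte covariate, and stayed at 1 with each library left out in turn. In either direction, 5542 of all 7753 tested genes were called as counts per 3000 sorted cells and 491 of 7753 with the covariate. The totals were 4114 of 8534 with the summed replicates, 3584 of 8751 without the 2 shallowest libraries and 3849 of 8512 without Trpm7 cKO replicate 5. The number past both thresholds (1) was 4 with no filter, 2 with the summed replicates, 2 without the 2 shallowest libraries, 2 with a fold threshold of 1 and 1 to 2 with 1 library left out. It was 2 without control replicate 2 or 5 or Trpm7 cKO replicate 2 or 4, where Mmgt1 went past 1.5, and without Trpm7 cKO replicate 5. In that last setting, with the summed replicates and without the 2 shallowest libraries, the added gene was again Slc41a2. The count stayed at 1 with another gene on scaling on MuSC identity genes (Slc41a1 1.41, Mmgt1 -1.81) and as counts per 3000 sorted cells (Slc41a1 0.65, Mmgt1 -2.57), where Mmgt1 and not Slc41a1 was past both thresholds.

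Direction turned for Trpm7 with the leukocyte covariate (1.21), for Magt1 on scaling on MuSC identity genes (-0.062), as counts per 3000 sorted cells (-0.94) and with the covariate (-1.23), for Mrs2 with the covariate (0.034) and without the 2 shallowest libraries (0.067), and for Cnnm4 with total counts alone (0.0027) and without Trpm7 cKO replicate 1 (0.01) or 2 (0.24). As counts per 3000 sorted cells, Trpm7 (-1.25), Cnnm3 (-1.33), Cnnm4 (-1.23) and Mrs2 (-1.25) passed as lower, near the median of -1.15 over all genes, and scaling on MuSC identity genes moved that median to -0.36. The causes of the other turns were not tested. Deviations of libraries with the same replicate number had correlations of -0.12 to 0.18, within the -0.23 to 0.21 of all pairs across the genotypes. With 5 libraries per genotype these values cannot decide whether the numbers pair the samples. With the replicate block, 2 genes were past both thresholds, Mmgt1 having moved to -1.503, the log2 fold change of Cnnm4 was 0.071, and 3572 genes passed in all against 3774. Thinned to the smallest library, 4 of the 10 genes could be tested, and the same 2 were called. Depth limits Slc41a2, Slc41a3 and Cnnm2, for which 3 counts in the shallowest library amount to 16.6 CPM.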
